A study of Mus musculus with 12 samples.

Results

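Of 12 frontal cortex libraries, 3 held much more Trh transcript than the other 9, and these 3 were set against the 9 gene by gene. The libraries were chosen by a measured value: a library was Trh-rich where Trh reached at least 10 CPM (counts scaled to the library's total count). The Trh-rich libraries came from 2 APP/PS1 females, numbers 1 and 2, and from 1 APP/PS1/Hras-/- male, number 1. The 9 others are called Trh-poor. Because Trh chose them, every difference between the 3 and the 9 is a description without a test.

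The study sequenced mRNA from the frontal cortex of 12 mice aged 9 months, to compare APP/PS1 mice with APP/PS1/Hras-/- mice. All 12 mice carried APP/PS1, the transgenes of an amyloid mouse model. The 6 mice of the second genotype also lacked functional Hras, which encodes a small GTPase, and are called knockouts here. Each genotype held 3 males and 3 females, the mice are separate animals per the series' design, and their numbers follow the order of deposition. The Trh-rich libraries thus lay in 2 of the 4 groups, with 2 of the 3 APP/PS1 females and 1 of the 3 knockout males. No APP/PS1 male and no knockout female was Trh-rich.

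Trh encodes the precursor of thyrotropin-releasing hormone, a tripeptide cut from repeated copies within the precursor. Hypothalamic neurons release it towards the pituitary, where it drives thyrotropin secretion, and neurons in other forebrain regions also make it and use it as a transmitter. Its receptor TRHR is coupled to Gq, and a membrane ectoenzyme, TRHDE, degrades the peptide outside the cell.

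The mouse Trh gene (ENSMUSG00000005892) lies on the minus strand of GRCm38 at chr6:92242061-92244650. The 250 bases before its start are shown because Trh is the gene that set the libraries apart. They lie at chr6:92244651-92244900 on the minus strand and come from RefSeq (GRCm38.p6). Capitals mark TGACCTCA, an element of the TRH promoter that is known as site 4 and as a place where CREB and the thyroid hormone receptor can bind.

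Trh: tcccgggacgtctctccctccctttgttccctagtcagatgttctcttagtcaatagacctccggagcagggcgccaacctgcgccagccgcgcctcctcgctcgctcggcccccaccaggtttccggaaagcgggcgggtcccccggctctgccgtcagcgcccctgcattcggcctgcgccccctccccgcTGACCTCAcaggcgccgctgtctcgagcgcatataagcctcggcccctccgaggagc

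The element stood 57 to 50 bases before the start. On either strand, 1.94% of 32851 mouse promoters of this length held it. The full cAMP response element TGACGTCA was not among the letters of this window, and 1.55% of the promoters held it. These matches describe the letters only, and no file of the series measured binding there.

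Scaled to the column total, Trh was 10.9 CPM in APP/PS1 female 1, 18.1 in APP/PS1 female 2 and 15.5 in knockout male 1. The Trh-poor libraries held 0.715 to 2.06 CPM. The library just inside the limit, APP/PS1 female 1, had 216 Trh counts, with an exact 95% Poisson interval of 9.53 to 12.5 CPM. The library just outside it, APP/PS1 male 2, had 40 counts and an interval of 1.47 to 2.81 CPM. These intervals cover counting error only. No library fell between 2.06 and 10.9 CPM, so any limit in that gap picks the same 3.

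Total counts were 17019268 to 19736093 in the Trh-rich and 13984692 to 20174131 in the Trh-poor libraries, and the RNA integrity number was 8.5 to 8.6 against 7.8 to 8.7. Hras stood at 73.7 to 102 CPM in the 6 APP/PS1 libraries and at 19.4 to 23.4 CPM in the 6 knockouts, so the 3 Trh-rich libraries matched their genotype labels. Slc17a7, the vesicular glutamate transporter of cortical projection neurons, was 1037 to 1259 CPM in the Trh-rich and 965 to 1445 CPM in the Trh-poor libraries. It is 1 marker, taken after its values were seen, and alone does not settle which tissue a library held. Of the 21 cortical markers listed below, 18 were lower on average in the Trh-rich libraries. From here on CPM are scaled with TMM factors, and differences are between the mean log2 CPM of the 3 and of the 9.

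Of 17307 genes with enough counts, 359 (2.07%) were higher in the Trh-rich libraries, meaning that the lowest of the 3 lay above the highest of the 9 and that the difference was at least 0.5 on the log2 scale. The reverse held for 207 genes (1.20%), called lower. These shares of all genes are the background for the calls in every list below. The median over all genes was 0.01. A difference of 1 or more was reached by 149 of the higher genes, and one of -1 or less by 41 of the lower genes. Protein-coding genes made up 300 of the higher and 162 of the lower genes. In 47 of the 359 higher genes, fewer than 3 of the 9 Trh-poor libraries reached the count that the filter asks for. These genes were kept only through the Trh-rich libraries, a filter that favours a higher level there. In all, 347 genes were kept in that way, so the filter alone did not make a gene higher. Among the genes named below, those called higher and kept in that way are Igkc, Krt2, Irs4, Gm44812 and Rtl1. In bulk tissue, more cells of a type and more RNA per cell cannot be told apart.

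Trhr, the receptor of the hormone (ENSMUSG00000038760, chr15:44196135-44235912, plus strand), was itself among the genes with the largest differences. It was 8.31 CPM in APP/PS1 female 1, 12.6 in APP/PS1 female 2 and 14.9 in knockout male 1, against 0.825 to 5.29 CPM with a median of 1.64 in the Trh-poor libraries. Its groups did not overlap, and the nearest Trh-poor libraries were APP/PS1 male 1 at 5.29 and knockout female 3 at 4.94 CPM. Its difference was 2.42 on the log2 scale, beside 3.23 for Trh.

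Beyond Trh and its receptor gene Trhr, no gene of the TRH system was called in either direction. The list of processing enzymes, receptors and degrading enzymes held 13 genes, of which 12 had enough counts, Trh and Trhr were higher, none was lower and the median difference was 0.01. Among the enzymes that mature the precursor, the convertase genes Pcsk1 and Pcsk2 differed by -0.30 and -0.24, and Cpe, the carboxypeptidase that trims the cut ends, by 0.25. Pam, which amidates the peptide, differed by -0.003. Qpct, the glutaminyl cyclase that closes its first residue, differed by 0.10 and its relative Qpctl by 0.02. Trhr2, the second receptor of rodents, was 2.29 to 3.50 CPM in the Trh-rich and 3.13 to 7.90 CPM in the Trh-poor libraries, a difference of -0.75 with overlap. Of the degrading enzymes, Trhde differed by -0.39, Pgpep1 by 0.27 and Prep by -0.001, all with overlap. Tshb, which encodes the thyrotropin beta chain of the pituitary, had at most 1 count in a Trh-rich library and 11 counts in APP/PS1 female 3.

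**Figure D1:**
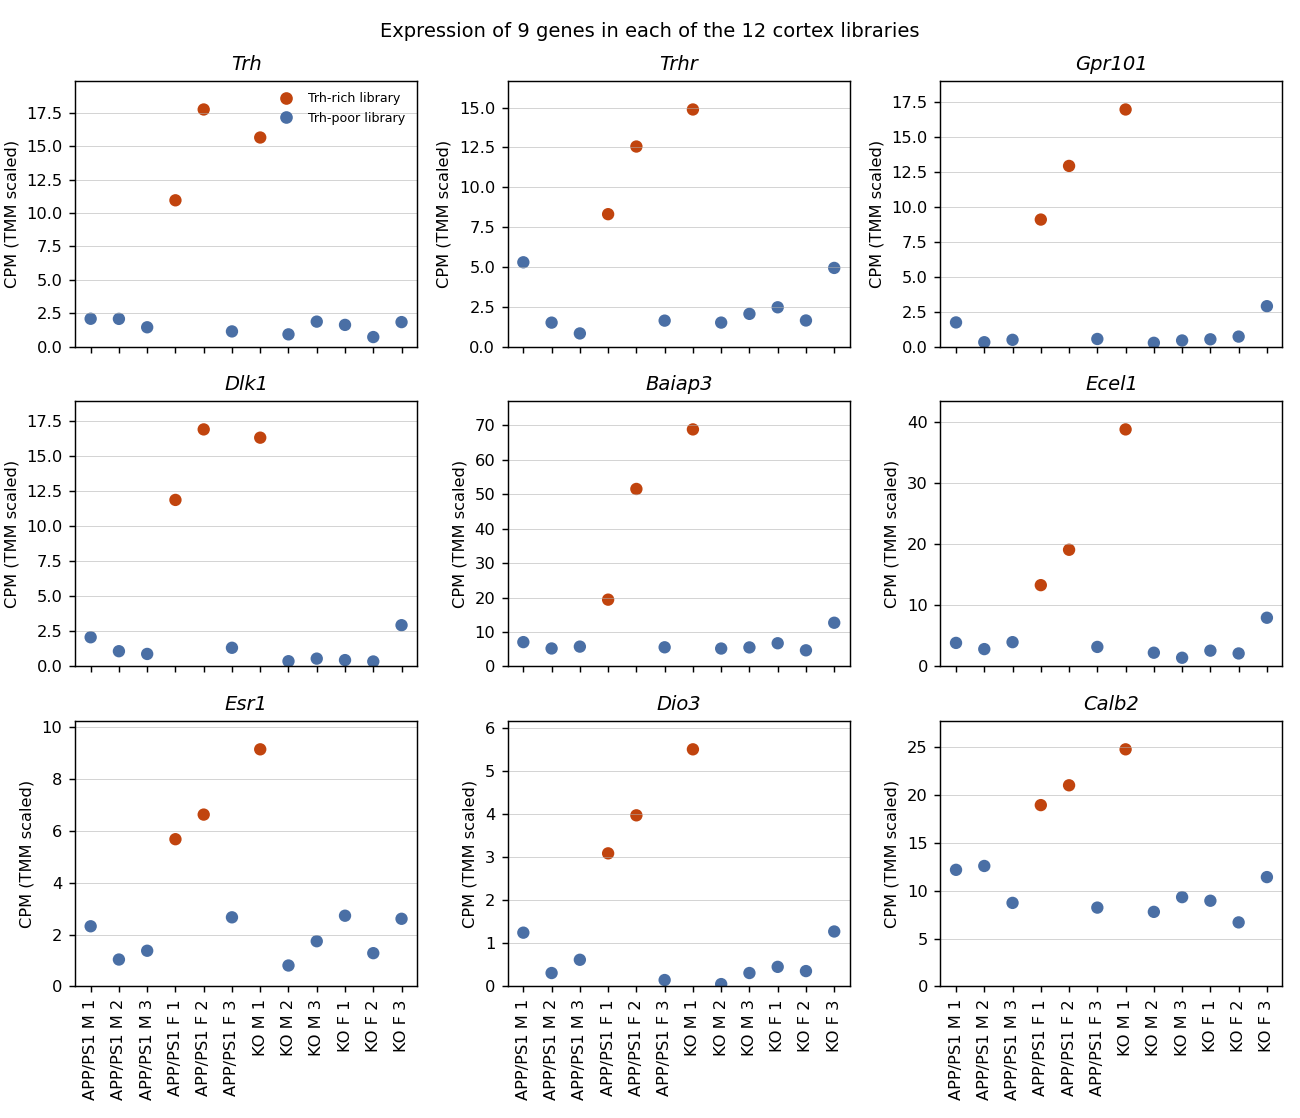
Level of 9 genes (CPM with TMM scaling, linear axes from 0) in each of the 12 libraries, with KO for APP/PS1/Hras-/-, F for female and M for male. Each point is 1 mouse. Trh chose the libraries and the other genes shown were called higher, so the 3 Trh-rich libraries lie above the 9 others in every panel by selection. Trh was 10.9 to 17.7 against 0.712 to 2.08 CPM, and knockout female 3 is the highest Trh-poor library for Gpr101, Dlk1, Baiap3, Ecel1 and Dio3.

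The largest difference was that of Gpr101 (chrX:57496668-57503757, minus strand), an orphan G protein-coupled receptor known from the hypothalamus. It was 9.07, 12.9 and 16.9 CPM in APP/PS1 female 1, APP/PS1 female 2 and knockout male 1, against 0.269 to 2.88 CPM in the 9, and the difference was 4.03. Dlk1, an imprinted gene for a membrane protein related to Notch ligands, was 11.9, 16.9 and 16.3 CPM against 0.356 to 2.94 CPM, a difference of 3.89. In both genes knockout female 3 was the highest of the 9. Dio3, the deiodinase that inactivates thyroid hormone, lies on chromosome 12 like Dlk1 and was 3.09, 3.97 and 5.51 CPM against 0.0537 to 1.28 CPM, a difference of 3.00.

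Ecel1, a metallopeptidase of neurons, was 13.3, 19.1 and 38.8 CPM in the same order of libraries, against 1.43 to 7.99 CPM (difference 2.78). Baiap3, a Munc13-related protein of vesicle traffic, was 19.4, 51.6 and 68.8 CPM against 4.70 to 12.7 CPM (2.70). For these 2 genes the lowest Trh-rich value was that of APP/PS1 female 1 and the highest that of knockout male 1. Irs4, an insulin receptor substrate, was 1.57, 2.76 and 5.68 CPM against 0.0712 to 0.825 CPM (2.72). Magel2, an imprinted gene of the Prader-Willi region, was 3.04, 6.28 and 7.62 CPM against 0.591 to 2.05 CPM (2.49).

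Igkc, the constant part of the antibody kappa chain, was 7.25, 8.76 and 3.05 CPM against 0 to 2.62 CPM, and Krt2, a keratin, was 1.87, 3.80 and 4.16 CPM against 0.107 to 0.595 CPM. Also among the 15 largest were AW551984 (2.38), the extended synaptotagmin Esyt3 (2.25), the GTPase activator Arhgap6 (2.12) and the long noncoding RNA Gm44812 (2.12), where the numbers are log2 differences. Genes of several unlike functions therefore made up the top of the ranking.

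Among the lower genes the largest difference was -2.34, for Sytl1, a synaptotagmin-like protein that binds Rab27. Sytl1 was 1.93, 1.27 and 0.527 CPM in APP/PS1 female 1, APP/PS1 female 2 and knockout male 1, against 3.09 to 12.5 CPM in the 9. Cbln2, a secreted organiser of synapses and the most abundant per length among the 10 lower genes taken for their size, was 21.6, 9.22 and 12.1 CPM against 26.8 to 43.6 CPM, a difference of -1.40. Rnf39, a RING finger gene, was 2.43, 2.42 and 1.29 CPM against 4.27 to 7.34 CPM, a difference of -1.48. The others were Bglap3 (-1.99), Gbp2b (-1.98), Gm765 (-1.83), Gm13601 (-1.59), A830009L08Rik (-1.54), Gm17971 (-1.48) and Ccer2 (-1.48). Gbp2b, a guanylate-binding protein, had 0 counts in knockout male 1 but 1.42 and 1.79 CPM in the APP/PS1 females, close to the lowest Trh-poor value of 1.80 CPM. Gm13601 is annotated as antisense and Gm17971 as a processed pseudogene, so their counts may include reads of another gene. How the counting treated strand and shared reads is not given in the sources used here.

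Markers of the hypothalamus and preoptic area stood highest of all lists, with a median difference of 1.32. This list, like the others, was chosen with earlier results of these data known, so its rank is a description and supports nothing. Of its 29 genes 24 reached 10 counts in all, 12 had enough counts to be kept, 6 of these were higher (against 2.07% of all genes, on the contrast that chose the libraries) and none was lower. Of the 12, 2 met the filter only with the Trh-rich libraries, Irs4 among them. Beside Baiap3, Irs4, Magel2 and Dlk1, these were Esr1, the estrogen receptor alpha, and Moxd1, a monooxygenase-like gene. Esr1 was 5.68, 6.62 and 9.14 CPM against 0.806 to 2.73 CPM (1.97), and Moxd1 was 10.6, 21 and 16.4 CPM against 4.77 to 8.10 CPM (1.28). Over the 12 kept genes the per-library median, relative to the mean of the 9, was 0.57 in APP/PS1 female 1, 1.59 in APP/PS1 female 2 and 1.82 in knockout male 1. In the Trh-poor libraries it ran from -0.33 to 0.47, with APP/PS1 female 3 at 0.47 next to APP/PS1 female 1.

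Most of the hormone genes that define hypothalamic nuclei had few counts. Avp (vasopressin) had 2, 0 and 14 counts in APP/PS1 female 1, APP/PS1 female 2 and knockout male 1, and up to 7 in a Trh-poor library. Oxt (oxytocin) had 0, 3 and 5 counts, Pmch (melanin-concentrating hormone) 3, 6 and 3, Hcrt (orexin) 1, 1 and 0, and Agrp 0, 1 and 0. Gal (galanin) had 1, 6 and 8 counts against 0 to 3. Kiss1 and the regulator gene Nkx2-4 had no count in any library. Pomc was not close to 0 in every library, at 0.709 to 1.15 CPM in the Trh-rich and 0.498 to 3.26 CPM in the Trh-poor libraries, with APP/PS1 female 3 the highest.

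Low counts of receptors and regulators were less evenly spread. Calcr, the calcitonin receptor, had 4, 25 and 22 counts in the Trh-rich libraries and 0 or 1 in each of the 9. Mc3r, a melanocortin receptor, had 6, 8 and 9 counts against 0 to 2. Otp and Sim1, regulators of hypothalamic and amygdalar neurons, had 19 and 9 counts in knockout male 1, 6 and 2 in APP/PS1 female 2, and 1 and 0 in APP/PS1 female 1. Rax, a regulator of the ventral hypothalamus, had 5, 4 and 3 counts against 0 to 2. Nr5a1, a regulator of the ventromedial hypothalamus, had 3, 0 and 3 counts against 0 to 3, and Six6 had 1, 0 and 0 against 0 to 3. In raw counts, not scaled to library size, Calcr, Mc3r and Rax did not overlap between the 3 libraries and the 9. Otp, Sim1, Nr5a1 and Six6 did. All of these genes were too low to be kept for the contrast and were picked after their values were seen. With no filter on low counts, 463 of the 31149 genes with a count were called higher.

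**Figure D2:**
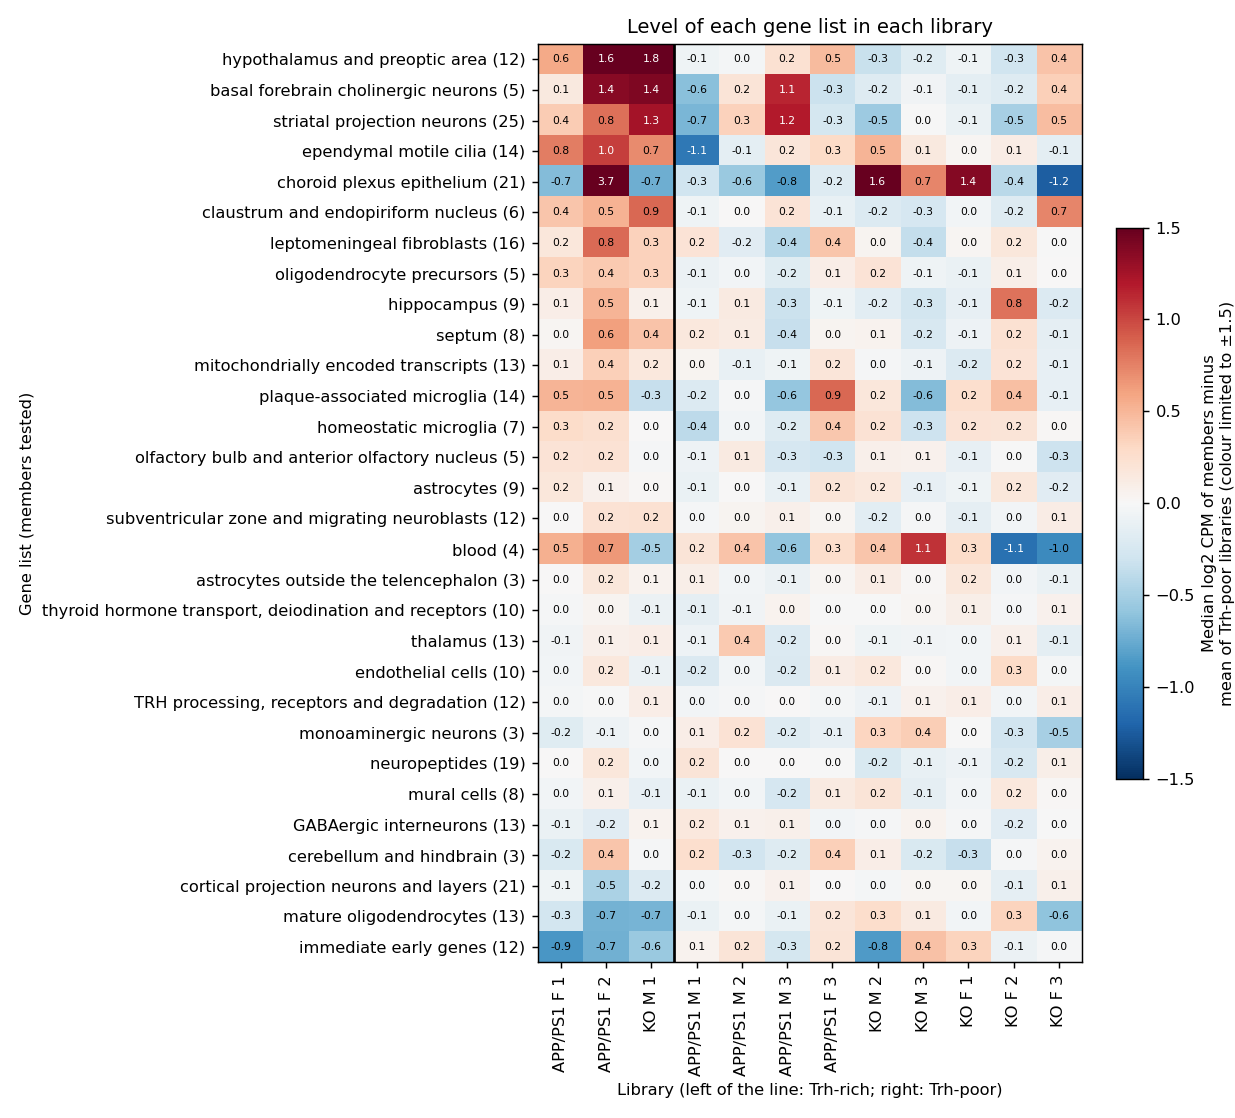
Median over each list's kept members of log2 CPM minus the mean of the 9 Trh-poor libraries, by library; the number in each cell is that median, the number after a list's name is how many members were kept, and the colour scale stops at 1.5 in either direction. The hypothalamic list is at 0.57, 1.59 and 1.82 in the 3 Trh-rich libraries, the choroid plexus list is at 3.66 in APP/PS1 female 2 alone, and the striatal list is also high in APP/PS1 male 3 (1.18).

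The thalamic list lay near 0. Of 15 genes 13 were kept, 1 was higher, none was lower and the median was 0.03. The higher gene was Lhx9, a LIM homeobox regulator that is also made outside the thalamus, at 1.27, 1.56 and 2.99 CPM against 0.0688 to 0.997 CPM (1.75). Adarb1, an RNA-editing enzyme, was 238, 207 and 215 CPM against 239 to 322 CPM, and Ramp3, a receptor-modifying protein, was 9.98, 7.2 and 8.03 CPM against 9.52 to 17.1 CPM. Prkcd and Tcf7l2, which mark thalamic relay neurons, were highest in a Trh-poor library, APP/PS1 male 2, at 47.2 and 11.1 CPM, against 17.9 to 22.3 and 4.90 to 5.51 CPM in the Trh-rich libraries. Shox2, another thalamic regulator, had 48 counts in APP/PS1 male 2 and at most 2 in a Trh-rich library. Of 14 regulators of the diencephalon and more caudal regions, only Tal1 was kept, at 2.74 to 4.51 against 1.72 to 3.33 CPM.

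For the habenula, 2 of 5 markers were kept: Nwd2 was higher by 0.56 and Gpr151, a receptor of habenular neurons, stood at 0.405 to 0.576 against 0.142 to 0.806 CPM. For the septum, 8 of 9 were kept and the median was 0.25. The zinc finger gene Zic2 was higher, at 11.5, 14.6 and 16.9 CPM against 7.22 to 10.9 CPM, and the other 7 kept genes overlapped, among them Zic1 at 11.9 to 18.6 against 9.27 to 18.5 CPM.

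Striatal projection neuron markers stood above the mean of the 9, but not apart from them. All 25 were kept, 23 of the differences were positive, the median was 0.80 and none was called higher or lower. Ppp1r1b, the DARPP-32 gene of dopamine signalling, was 107, 147 and 151 CPM in the Trh-rich libraries against 57.1 to 201 CPM. Penk, the enkephalin precursor, was 91.3, 154 and 168 CPM against 22.4 to 126 CPM. For Ppp1r1b, Penk and Adora2a, the adenosine receptor of indirect pathway neurons, APP/PS1 male 3 was the highest Trh-poor library, and Adora2a was 34.2 CPM there against 12.6 to 29.4 CPM in the Trh-rich libraries. Its per-library list median was 1.18, against 0.38, 0.82 and 1.25 in APP/PS1 female 1, APP/PS1 female 2 and knockout male 1, while its Trh was 1.44 CPM. A high striatal level and a low Trh level thus occurred in the same library.

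Basal forebrain cholinergic markers were likewise high in APP/PS1 male 3. Of 8 genes 5 were kept, none was called and the median was 0.99. Of the 5, 1 met the filter on low counts only with the Trh-rich libraries. Chat, which makes acetylcholine, was 0.709, 2.02 and 2.40 CPM against 0.269 to 2.41 CPM, with APP/PS1 male 3 the highest. Slc5a7, the choline transporter, was 1.22, 3.57 and 2.58 CPM against 0.57 to 4.06 CPM, with the same library on top. Ngfr, a neurotrophin receptor of these neurons, was 2.43, 5.41 and 3.22 CPM against 1.72 to 3.71 CPM. The 6 markers of the claustrum and endopiriform nucleus were all kept, with a median of 0.57 and no call: Nr4a2, a nuclear receptor, was 54.8, 77.2 and 88.9 CPM against 30.1 to 103 CPM, and Lxn, latexin, was 34.3 to 37.9 against 24.0 to 34.6 CPM. Knockout female 3 was the highest of the 9 for both, and its per-library median of 0.73 lay between those of APP/PS1 female 2 (0.52) and knockout male 1 (0.87).

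Cortical markers tended the other way. All 21 were kept, 18 of the differences were negative and the median was -0.24. Of the 21, 2 genes were lower (against 1.20% of all genes) and 1 was higher (against 2.07%). Tbr1, a regulator of deep-layer and early-born neurons, was 124, 74.7 and 94.4 CPM against 136 to 156 CPM (-0.58). Cux2, a regulator of upper-layer neurons, was 133, 102 and 113 CPM against 139 to 186 CPM (-0.55). Calb1, the calcium buffer calbindin, was higher, at 108, 127 and 132 CPM against 60.7 to 107 CPM (0.65), with knockout female 3 at 107 CPM. For Tbr1 and Cux2, APP/PS1 female 1 was the nearest of the 3 to the Trh-poor libraries.

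Among 13 interneuron markers, Calb2, calretinin, was higher and Vip, a peptide of disinhibitory interneurons, was lower, and the median was -0.09. Calb2 was 19, 21 and 24.8 CPM against 6.69 to 12.6 CPM (1.19), and Vip was 28.6, 28.7 and 26.8 CPM against 34 to 45.7 CPM (-0.51). Pvalb, the parvalbumin of fast-spiking cells, was 34.9, 18.7 and 17.3 CPM against 32.8 to 69.0 CPM. It overlapped only through APP/PS1 female 1 and knockout female 3, and its difference was -1.38.

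Of 27 neuropeptide genes 19 were kept, and Nmb, neuromedin B, was the 1 other than Trh to be higher, at 4.10, 3.86 and 3.87 CPM against 1.72 to 3.83 CPM (0.73). Vip was the 1 that was lower, and the list's median was -0.01. Nts, neurotensin, was 1.32, 3.05 and 5.21 CPM against 0.498 to 1.5 CPM. Ucn3, urocortin 3, had 8 counts in APP/PS1 female 2 and 6 in knockout male 1, and none in the other 10 libraries.

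Of 10 genes of thyroid hormone handling, all kept, Dio3 was higher and Hr lower. Hr, a nuclear corepressor whose transcription thyroid hormone is known to raise, was 40.9, 20.0 and 21.7 CPM against 44.0 to 73.9 CPM (-1.21). The receptor genes Thra and Thrb differed by 0.22 and -0.09, Klf9, another target of the hormone, by -0.30, and the activating deiodinase Dio2 by -0.18. The list's median was 0.03.

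The choroid plexus list was carried by 1 library. All 21 genes were kept, 1 of them only with the Trh-rich libraries. All 21 differences were positive, none was called and the median was 0.79. Ttr, transthyretin of the choroid plexus, was 32.3 CPM in APP/PS1 female 1, 2837 in APP/PS1 female 2 and 9.90 in knockout male 1, against 3.55 to 551 CPM in the 9. Enpp2, autotaxin, was 213, 1633 and 159 CPM against 163 to 458 CPM. The per-library medians were -0.66, 3.66 and -0.73, and without APP/PS1 female 2 the list's median difference was -0.60. A high choroid plexus level was therefore not shared by the 3 Trh-rich libraries.

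Markers of motile cilia of the ependyma, the lining of the ventricles, had similar per-library medians in the 3. Of 14 genes, all kept, 4 were higher (against 2.07% of all genes), none was lower, 10 were not called and the median was 0.79, with per-library medians of 0.76, 1.04 and 0.71 against -1.07 to 0.51. Rsph1, a radial spoke protein, was 5.47, 6.28 and 5.80 CPM against 1.19 to 4.16 CPM (1.14). Hydin, of the ciliary central pair, was 3.29, 5.70 and 3.34 CPM against 0.654 to 2.83 CPM (1.25). Ccdc153 (1.24) and Tekt1, a tektin of ciliary microtubules (0.93), were the others, while Foxj1, the regulator of motile cilia, overlapped at 5.04 to 10.7 against 3.03 to 8.83 CPM. The list's median was 0.32 when only the 6 libraries of APP/PS1 females and knockout males were compared.

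Of the 16 leptomeningeal fibroblast genes 1, the proteoglycan gene Dcn, was higher, at 26.4, 34.9 and 37.0 CPM against 7.65 to 23.4 CPM (1.49). The list's median was 0.43, and Ptgds, the prostaglandin D synthase of the meninges, was 746 to 967 against 463 to 900 CPM. Igfbp2, a binding protein of insulin-like growth factors, was 30.9, 71.2 and 26.5 CPM against 16.1 to 32 CPM. Mature oligodendrocyte genes were lower on average: all 13 differences were negative, the median was -0.53 and none was called. Mbp, the myelin basic protein, was 2384, 1531 and 1680 CPM against 1954 to 3758 CPM, with knockout female 3 the lowest of the 9. The 5 precursor genes were positive, with a median of 0.43, and none was called: Pdgfra, their growth factor receptor, was 71.6, 84.2 and 80.2 CPM against 47.9 to 69.1 CPM. Its groups did not overlap, but its difference of 0.49 fell short of the limit of 0.5. Gpr17, a receptor of maturing precursors, was 55, 74.1 and 58.4 CPM against 38.6 to 56.6 CPM.

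Immediate early genes, which neurons transcribe within minutes of activity, had the lowest list median, -0.71. All 12 were kept, all 12 differences were negative, and 3 genes, Arc, Nr4a1 and Egr1, were lower (against 1.20% of all genes). Arc, a synaptic plasticity gene, was 159, 164 and 141 CPM against 186 to 624 CPM (-1.34). Nr4a1, a nuclear receptor, was 98.3, 120 and 110 CPM against 128 to 337 CPM (-1.02), and Egr1, a zinc finger regulator, was 258, 239 and 273 CPM against 336 to 662 CPM (-0.72). Knockout male 2, a Trh-poor library, was the lowest of the 9 for these 3 genes, and its per-library median of -0.85 lay within those of the Trh-rich libraries (-0.88, -0.72 and -0.56). How the time of dissection or handling bore on these genes was not tested.

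The remaining lists lay closer to the median of all genes. Aqp4, the water channel of astrocyte endfeet, was the 1 astrocyte gene of 9 to be higher, by 0.51, and the list's median was 0.13. Slc1a2, the glutamate transporter of astrocytes, was 3786, 3380 and 3333 CPM against 2773 to 3956 CPM, and Aldoc, an aldolase, was 929, 819 and 833 CPM against 734 to 938 CPM. Sp8, an olfactory interneuron regulator, was the 1 olfactory gene of 5 kept to be lower, by -0.58, with a median of 0.15. Cdhr1, a protocadherin of mitral cells, was 5.47, 10.3 and 10.7 CPM against 1.77 to 7.27 CPM, and Tshz1, a zinc finger regulator, was 34.6 to 36.4 against 19 to 36.1 CPM. No gene was called among the neuroblast (median 0.09), hippocampal (0.33), monoaminergic (-0.01), hindbrain (-0.17), endothelial (0.02), mural (-0.03), blood (0.09), homeostatic microglial (0.18), plaque-associated microglial (0.19), mitochondrial (0.21) and non-telencephalic astrocyte (0.07) lists. No pituitary gene was kept. Gh and Prl, the growth hormone and prolactin genes, had 49 and 95 counts in APP/PS1 female 2, 165 and 297 in the Trh-poor APP/PS1 female 3, and at most 6 elsewhere.

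The 3 Trh-rich libraries were not equally far from the 9. At least 2-fold above the mean of the Trh-poor libraries stood 237 genes in APP/PS1 female 1, 613 in APP/PS1 female 2 and 485 in knockout male 1, against 74 to 214 in a Trh-poor library. At least 2-fold below stood 121, 329 and 389 genes, against 101 to 272. APP/PS1 female 1 was the lowest of the 3 in 275 of the 359 higher genes and the highest of the 3 in 154 of the 207 lower genes. Without it, 848 genes were higher and 642 lower. Knockout female 3 was the nearest of the 9 in 157 of the higher and 69 of the lower genes, and over the higher genes its median stood 0.30 above the mean of the 9. Without it, 521 genes were higher and 357 lower. Its Trh was 1.83 CPM, within the range of the other Trh-poor libraries.

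**Figure D3:**
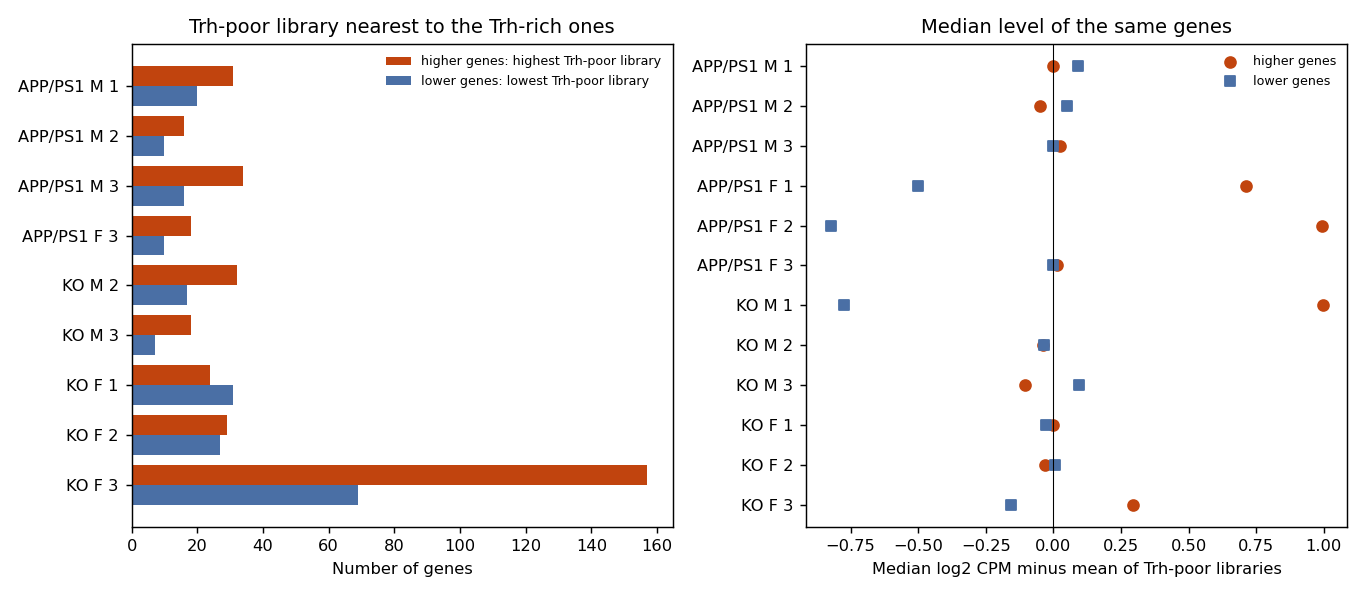
Left, number of genes for which each Trh-poor library is the nearest to the Trh-rich ones (highest of the 9 for the 359 higher genes, lowest of the 9 for the 207 lower genes); right, each library's median log2 CPM over the same genes minus the mean of the Trh-poor libraries. Knockout female 3 is nearest in 157 higher and 69 lower genes, and APP/PS1 female 1 has the smallest offset of the Trh-rich libraries for the higher genes (0.71).

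The difference was also taken inside each group that held both kinds of library, as APP/PS1 females 1 and 2 against 3, and as knockout male 1 against 2 and 3. The contrasts have no library in common. Across the 17307 genes Pearson's r between them was 0.49 and Spearman's coefficient 0.50. Genes are not independent replicates, each side rests on 3 libraries, and all 12 share 1 protocol. Both differences were positive in 6120 genes and negative in 5950, and their signs were opposite in 5237. Trh differed by 3.49 in the females and 3.46 in the knockout males, and Gpr101 by 4.05 and 5.21. Ttr differed by 2.37 and by -5.29. The hypothalamic list had medians of 1.28 and 2.07, the striatal list 0.81 and 1.56, and the choroid plexus list 1.86 and -1.65.

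**Figure D4:**
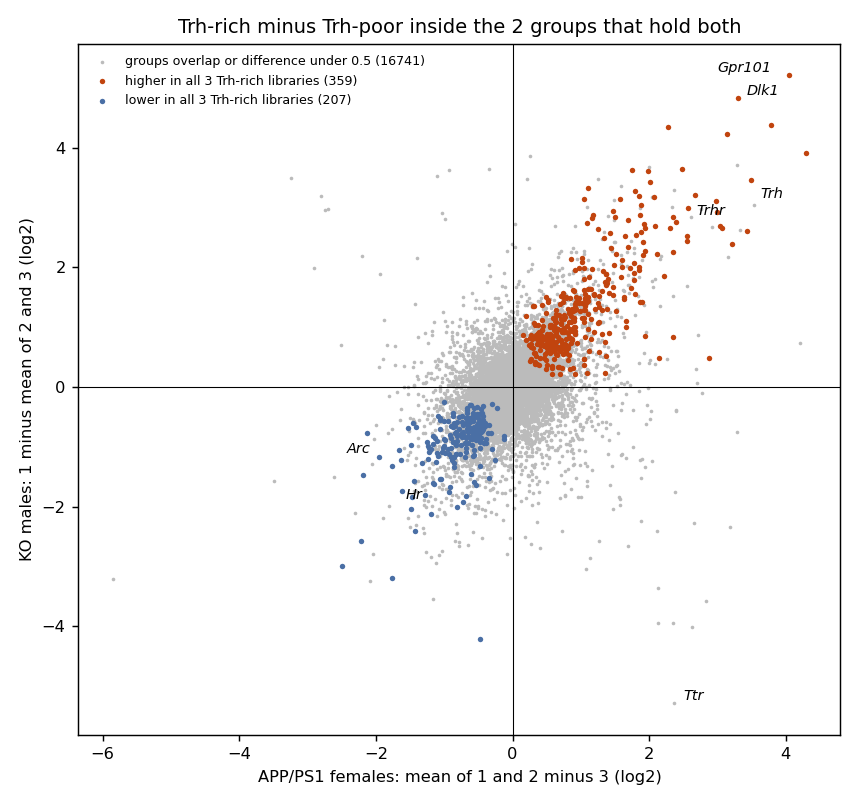
Each of the 17307 genes by its log2 difference between Trh-rich and Trh-poor libraries within APP/PS1 females (horizontal) and within knockout males (vertical), with the 359 higher and 207 lower genes coloured. Trh (3.49 and 3.46) and Gpr101 (4.05 and 5.21) lie to the upper right, and Ttr (2.37 and -5.29) lies to the lower right.

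The study's own question, the effect of Hras, was tested with and without the 3 libraries, with edgeR's quasi-likelihood test and Benjamini-Hochberg adjustment. The test across sexes called 3 of 17307 genes (0.0173%) with 12 libraries and 3 of 18040 (0.0166%) with the 9 Trh-poor libraries. Hras was called in both fits, at -1.95 (SE 0.08, edgeR adjusted p = 3.04e-09) and -1.98 (SE 0.10, edgeR adjusted p = 3.06e-07). Gm5905, a processed pseudogene on chromosome 7 close to Hras, was called in both, at 6.69 and 7. Lrrc56, the neighbour of Hras on the other strand, was higher in knockouts by 0.91 with 12 libraries (edgeR adjusted p = 0.00128) and by 0.86 with 9, where it was not called (edgeR adjusted p = 0.0921).

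Gm13394, a processed pseudogene on chromosome 2, took the place of Lrrc56 in the 9 libraries, at 6.92 (edgeR adjusted p = 7.02e-05). It was 131 CPM in APP/PS1 female 2 and 146 CPM in knockout male 1, and 0.811 to 1.61 CPM in the other 5 APP/PS1 libraries. The knockouts held 136 to 340 CPM. In APP/PS1 female 2 alone among its genotype, then, Gm13394 stood near the knockout level, while Gm5905 was 0.749 CPM and Hras 79.7 CPM there, as in the other APP/PS1 libraries. Reads of processed pseudogenes can come from near-identical genes, and how the counting treated them is likewise not known here. Leaving out the 3 libraries left APP/PS1 females with 1 mouse, which is then assumed to vary like the other groups.

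The genotype by sex interaction sets the knockout effect in females against that in males, so APP/PS1 females and knockout males enter it with the same sign. With the 9 libraries 1 APP/PS1 female is left, so a share of small p values can change through the loss of mice alone. No other 3 libraries were left out for comparison. No gene was called by edgeR with 12 libraries (0% of 17307) or with the 9 (0% of 18040), nor by DESeq2 with 12. At an unadjusted p under 0.05, edgeR gave 1248 genes (7.21%) with 12 libraries, 803 (4.64%) with Trh-rich status as a covariate and 537 (2.98%) with the 9, and DESeq2 gave 1214 with 12. The lowest edgeR adjusted p was 0.667 with 12 and 0.980 with 9 libraries. For the effect across sexes the unadjusted counts were 291 (1.68%), 500 (2.89%) and 366 (2.03%).

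The genes of smallest p in the interaction were different in the 2 fits. With 12 libraries they were Ccdc170, at -2.66 (SE 0.53, edgeR adjusted p = 0.667), and 2010001K21Rik, at -2.89 (SE 0.63, the same adjusted p). With 9 libraries they were Rasd1, a Ras-related protein induced by steroids, at 1.96 (SE 0.38, edgeR adjusted p = 0.980), and Doc2b, a calcium sensor of vesicle release, at 1.43 (SE 0.31, the same adjusted p). The interaction estimate of Trh was -4.51 with 12 and 0.75 with 9 libraries, that of Gpr101 -5.20 and 2.60, and that of Dlk1 -5.00 and 1.49. Trh chose the libraries, and Gpr101 and Dlk1 led the contrast, so their estimates with 12 follow from that choice. Those with 9 rest on 1 APP/PS1 female, and their change of sign is not read as a result. Of the 359 higher genes, 104 were at an unadjusted p under 0.05 with a negative estimate and none with a positive one with 12 libraries. With 9 libraries 340 of them were tested, and the counts were 2 and 17. Of the 207 lower genes, 25 had a positive and none a negative estimate at that p with 12, against none and 4 with 9. These genes were called on the same libraries, so the counts with 12 libraries follow from the choice and support nothing.

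**Figure D5:**
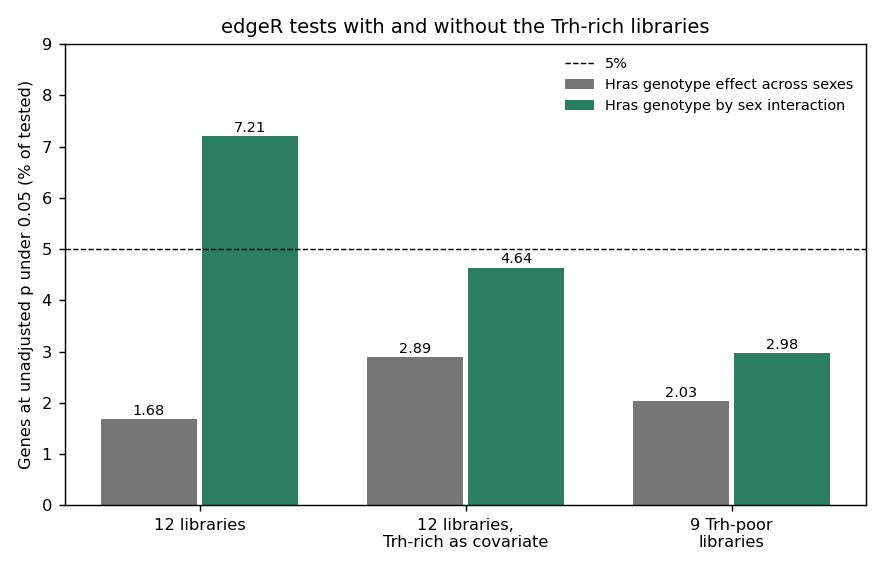
Percentage of tested genes with p under 0.05 before adjustment in edgeR's test of the Hras effect across sexes (grey) and of the genotype by sex interaction (green), for 12 libraries, for 12 libraries with Trh-rich status as a covariate and for the 9 Trh-poor libraries; the dashed line marks 5%. The interaction bars stand at 7.21%, 4.64% and 2.98%, and those of the effect across sexes at 1.68%, 2.89% and 2.03%.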

How the data were processed

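The deposited table holds raw counts per gene and library, which the authors did not normalize. Per the labels, RNA came from frontal cortex and libraries from the TruSeq Stranded mRNA kit. HISAT2 2.1.0, featureCounts, Trimmomatic 0.33 and FastQC 0.11.7 are listed per the submitters' processing notes, as are the builds mm10 and mm9, without their roles. Which annotation and strand setting the counting used, and what it did with multiply aligned reads, is not stated there.

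Gene identifiers were matched to GENCODE M21 (GRCm38). Of 54532 genes, 37 had no match and held 0.00986% of the counts, and 31149 had a count. The filterByExpr rule of edgeR 4.0.16 in R 4.3.3 over the 4 groups kept 17307. CPM were scaled with TMM factors, and log2 CPM used a prior count of 2. Total counts ran from 13984692 to 20174131.

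The Trh contrast was described without a test: a gene was called where the 3 and the 9 libraries did not overlap and the log2 difference was at least 0.5. Genotype was tested with edgeR's quasi-likelihood test (robust, adjusted p threshold 0.05), with sex as a covariate or as 4 group means. The calculations were tested on simulated data. The libraries, the 33 lists and the tests were chosen with earlier results of these data known.

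Named genes were Trh, Ttr, Ppp1r1b and Hras, the 15 largest higher and 10 largest lower calls with a mean of at least 1 CPM, the whole TRH list, in each list described the called members up to 6 or the members highest per length, and the 2 genes of smallest p in each genotype test. A few of these are not reported here. Some genes outside this rule are named for their values, and were chosen after these were seen: Slc17a7, Calcr, Mc3r, Otp, Sim1, Rax, Nr5a1, Six6, the hypothalamic hormone genes, Tcf7l2, Prkcd, Shox2, Adora2a, Chat, Foxj1, Pvalb, Nts, Ucn3, Thra, Thrb, Klf9, Dio2, Gh, Prl, Lrrc56 and Gm13394.
Alternatives covered RLE factors, column totals, a prior count of 0.5, other filters and limits, a Trh limit of 15 CPM, the X and Y chromosomes left out, the 2 groups with both kinds of library alone, DESeq2 1.42.0, Trh-rich status as a covariate and each library left out.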

Additional observations from a re-analysis of the deposited data

Results flagged for a closer look

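For 51 genes the highest or lowest of the 9 Trh-poor libraries was compared with the rest by Dixon's ratio, the gap to the nearest library over the whole range, and set against its 95% critical value. Chance flags about 1 in 20 such groups. The ratio was above it for knockout female 3 in Baiap3 (0.703, 12.7 CPM against 4.70 to 7.07), Arhgap6 (0.640), Ecel1 (0.610, 7.99 CPM against 1.43 to 3.99), Magel2 (0.605), Gm44812 (0.522) and Dcn (0.505, 23.4 CPM against 7.65 to 15.5), and in each of these it was the highest of the 9. APP/PS1 male 3 stood apart in Ppp1r1b (0.5005, 201 CPM against 57.1 to 129) and APP/PS1 male 1 in Igkc (0.678, 2.62 CPM against 0 to 0.844). Knockout female 1 was the highest in Gbp2b (0.540) and Egr1 (0.496), and knockout female 2 the lowest in Cux2 (0.501, 139 CPM against 162 to 186). Among the 6 APP/PS1 libraries, Hras was highest in APP/PS1 male 1 (0.632, 102 CPM against 73.7 to 84.0).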

How the results depend on the processing

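The contrast rests on 3 libraries chosen by Trh, and Trh-rich status is not spread evenly over genotype and sex. The count of higher genes (359) and of lower genes (207) became 696 and 553 with a Trh limit of 15 CPM, 800 and 714 with APP/PS1 females and knockout males alone, 149 and 41 with a minimum difference of 1, and 739 and 674 with none. Fewer libraries or another limit on size make these differ by construction. With each library left out in turn they ran from 380 to 848 and from 209 to 642; the highest counts came without APP/PS1 female 1. RLE factors, column totals, a prior count of 0.5, other filters and the omission of the X and Y chromosomes kept both within 1.5 times. The number of lists whose median lay at least 0.5 from that of all genes was 8, and 7 to 11 under the alternatives. Of 576 list medians under alternatives, 549 lay within 1 SD of the Trh-rich libraries and 27 did not. That SD is taken over the 3 per-library medians of a list, so a list in which they differ widely can hardly fail. The choroid plexus median of 0.79 became -0.60 without APP/PS1 female 2 and still counted as within. The blood median of 0.09 became -0.55 with APP/PS1 females and knockout males alone, and counted likewise. The tally is therefore no measure of stability for such lists. For the effect across sexes, 5 genes were called without a filter and 7 by DESeq2, and the cause was not tested; it was 3 or 4 with a library left out. The interaction called 0 in each fit, with 711 to 1790 genes at an unadjusted p under 0.05 when a library was left out. No paired analysis was possible because the labels give no replicate numbers shared between groups.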

Other observations

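Imprinted genes and genes of the X chromosome recurred among the largest differences, so both were counted after these values were seen, without a test. Of 30 imprinted genes 28 were kept, 8 were higher in the Trh-rich libraries (against 2.07% of all genes) and none was lower, with a median difference of 0.31. Beside Dlk1, Dio3 and Magel2 these were Nnat, a small membrane protein of developing and hypothalamic neurons, Zim1, Plagl1, Peg10 and Rtl1. Rtl1 met the filter on low counts only with the Trh-rich libraries, which favours a higher level there. Nnat was 170 CPM in APP/PS1 female 1, 279 in APP/PS1 female 2 and 275 in APP/PS1/Hras-/- male 1, against 50.5 to 130 CPM in the 9 Trh-poor libraries. Zim1, a zinc finger gene, was 7.96, 11.7 and 16.9 CPM against 3.57 to 6.40 CPM. Meg3 and Rian, the noncoding RNAs expressed from the other parental copy of the Dlk1 and Dio3 region, differed by -0.16 and -0.17 with overlap, so the genes of that region did not move as 1 block.

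The X chromosome held 576 of the 17307 genes kept (3.33%), 27 of the 359 higher genes (7.52%) and 2 of the 207 lower genes (0.966%). The Trh-rich libraries came from 2 females and 1 male and the Trh-poor libraries from both sexes. Among steroid receptor genes, looked at in the same way, Esr1 was higher, and Esr2, the estrogen receptor beta, was 0.507, 1.38 and 1.35 CPM against 0.0537 to 0.666 CPM, with overlap through APP/PS1 female 1. The progesterone receptor gene Pgr was 17.7 to 22.2 against 17.9 to 25.1 CPM. Of the 4 genes of this group that were kept, 1, which was not called, met the filter only with the Trh-rich libraries.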
